A study of Saccharomyces cerevisiae with 36 samples.

Results

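The genes described here encode the proteins of the large ribosomal subunit in the cytosol of the budding yeast Saccharomyces cerevisiae. They were chosen by name: RPL followed by a number and an optional A or B, and the stalk genes RPP0, RPP1A, RPP1B, RPP2A and RPP2B. Of the 6600 open reading frames in the count files, 79 met this rule, and all 79 passed the filter on low counts. They comprised 34 pairs of A and B paralogs and 11 single-copy genes on 14 chromosomes, with coding lengths of 78 to 1164 bases and a median of 429 bases. An intron interrupted 51 of them and 28 had none.

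Total RNA was sequenced from 4 strains of the laboratory background BY4742, each at 3 times with 3 biological replicates lettered A, B and C, 36 libraries in all. The strains were a deletion of MPK1 (mpk1Δ), a deletion of RRP6 (rrp6Δ), a double deletion of both genes, and the wild type (WT), which carried neither deletion. All cultures were grown in the rich medium YPD at 25 °C to mid-log phase, and pre-warmed YPD brought the heated ones to 42 °C for 10 or 45 min, with 0 min as the unheated state. MPK1, which the files list under the name SLT2, codes for the MAP kinase that cell wall stress activates, and RRP6 for a nuclear exosome subunit that digests RNA from its 3′ end. The number of independent clones behind each deletion strain is not given in the sources used here.

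Gene counts per library ran between 2235918 and 12072112. SLT2 had 6 counts in all over the 18 libraries labelled as lacking it, against at least 111 in each of the others, and RRP6 had 2 counts over its 18, against at least 40. At 10 min at 42 °C, 2 libraries stood apart from their replicates in the summed level of the large-subunit genes: rrp6Δ replicate A was the highest of its group and double-deletion replicate C the lowest. Reads aligned to several places, which the authors did not assign to genes, were more frequent in strains without RRP6: their median share at 0, 10 and 45 min was 12.2%, 19.3% and 24.2% in rrp6Δ and 9.79%, 14.9% and 19.4% in the double deletion, against 4.66%, 4.11% and 5.13% in mpk1Δ and 5.36%, 4.95% and 7.26% in WT. The part of these reads in the results was not tested.

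The large subunit of the ribosome joins amino acids into protein, and its proteins assemble in the nucleolus onto ribosomal RNA before the particle is exported. Most of its genes exist as A and B paralogs left by an ancient genome duplication, and in most pairs the copies encode proteins that are identical or nearly so. The coding sequences are less alike for RPP1 (68.9% identity), RPP2 (73.6%) and RPL22 (78.9%). In growing yeast their transcription is among the highest in the cell and is driven largely by Rap1 with Fhl1 and Ifh1, under the control of Sfp1 and of the TOR and PKA growth pathways, and stress is known to shut it down quickly. Rpl30 and Rpl22 are known to bind their own transcripts and limit their splicing.

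How far paralogs can be told apart in counts depends on their sequence, so the coding strands of a nearly identical pair and of a diverged pair are shown, with capitals at the bases that differ between the copies. RPL41A and RPL41B encode the shortest ribosomal protein and differ at 1 of 78 coding bases. RPL9A and RPL9B, whose ratio moved with both heat and strain, differ at 36 of 576, of which the first 150 bases hold 9. All sequences are from the R64 genome of NCBI RefSeq, 5′ to 3′.
RPL41A, chrIV:130407-130484 (- strand): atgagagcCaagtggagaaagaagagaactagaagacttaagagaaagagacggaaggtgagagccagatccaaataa
RPL41B, chrIV:221724-221801 (- strand): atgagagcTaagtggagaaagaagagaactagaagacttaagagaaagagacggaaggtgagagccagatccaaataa
RPL9A, chrVII:228180-228329 (- strand): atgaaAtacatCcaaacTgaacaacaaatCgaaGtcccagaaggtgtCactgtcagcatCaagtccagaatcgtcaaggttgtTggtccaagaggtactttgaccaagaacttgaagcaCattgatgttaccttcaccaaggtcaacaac
RPL9B, chrXIV:499681-499830 (+ strand): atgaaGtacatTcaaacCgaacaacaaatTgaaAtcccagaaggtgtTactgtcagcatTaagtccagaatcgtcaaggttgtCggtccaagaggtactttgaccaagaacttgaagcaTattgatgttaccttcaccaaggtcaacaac

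Of the 50-base windows along a copy's coding exons, 31.0% occurred once in the genome for RPL41, against 86.0% for RPL9, 88.2% for RPL15, 93.1% for RPL8, 100% for RPL22 and 87.0% for RPL36. In 7 pairs, RPL1, RPL4, RPL11, RPL14, RPL35, RPL41 and RPL42, fewer than 60% were unique, so the split of their counts between A and B is uncertain and rests on part of the gene.

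Because Rap1 is the general activator of these genes, the 49-base stretches around a match to its motif are shown for copies of the pairs described in detail, on the gene's own strand with the matched bases in capitals; that of RPL9A is on the opposite strand.
RPL9A, chrVII:228611-228659 (- strand): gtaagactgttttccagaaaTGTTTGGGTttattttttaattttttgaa
RPL8A, chrVIII:36236-36284 (- strand): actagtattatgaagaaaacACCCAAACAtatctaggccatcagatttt
RPL22B, chrVI:65149-65197 (- strand): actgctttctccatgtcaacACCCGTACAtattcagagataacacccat
RPL36A, chrXIII:650963-651011 (+ strand): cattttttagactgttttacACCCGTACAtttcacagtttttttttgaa
RPL36B, chrXVI:76525-76573 (- strand): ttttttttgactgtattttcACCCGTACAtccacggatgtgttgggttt

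These matches lie 310 bases before the start codon of RPL9A, 239 before RPL8A, 245 before RPL22B, 162 before RPL36A and 314 before RPL36B. The letters ACCCNNACA, searched on both strands of the 250 bases before to 50 bases after the start codon, were found in 8 of 79 large-subunit genes (10.1%) and in 2.86% of 5916 protein-coding genes. With 600 bases before the start codon, a window chosen after the data were seen, they were found in 38 genes (48.1%), against 6.76% of 5914. In the longer window 41 of the 79 genes had no match, among them RPL8B, RPL9B, RPL15A, RPL15B, RPL18B and RPL22A, which says only that these letters were absent there. Over the same 600 bases, the stress element AGGGG was found at 40.5% of large-subunit genes and 42.2% of all, the heat shock element, alternating GAA and TTC blocks, at 3.8% and 1.72%, and the Abf1 motif at 10.1% and 20%. These letters were found by matching alone and may overlap one another.

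The share of all gene counts that came from the 79 genes was lower in heated than in unheated cells of every strain, and lower in the 3 deletion strains than in WT at each time. In mpk1Δ the share was 13.75%, 13.5% and 15.4% in replicates A, B and C at 0 min, 1.98%, 1.515% and 2.06% after 10 min and 0.3095%, 0.3825% and 0.391% after 45 min. In rrp6Δ it was 15.1%, 14.7% and 14.35% at 0 min, 3.76%, 2.06% and 1.86% after 10 min and 0.46%, 0.478% and 0.412% after 45 min. In the double deletion it was 14.6%, 13.99% and 13.8% at 0 min, 2.81%, 3.18% and 1.03% after 10 min and 0.428%, 0.582% and 0.403% after 45 min. Within each deletion strain the 3 times did not overlap, and replicate A of rrp6Δ and replicate C of the double deletion lay apart from their replicates at 10 min. In WT the share was 17.2%, 16.6% and 17.4% at 0 min, 6.17%, 7.88% and 5.665% after 10 min and 1.25%, 1.70% and 0.994% after 45 min. At each time every WT library was above every deletion-strain library. Since these are bulk cultures, fewer living cells and less of these RNAs per cell cannot be told apart, and a share depends on every other gene in the library.

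**Figure D1:**
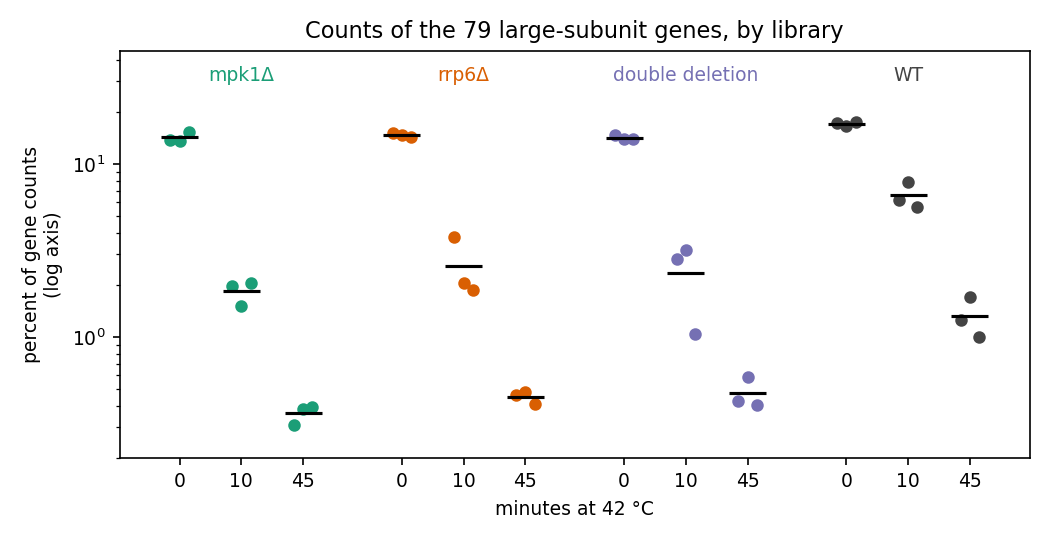
Percent of gene counts from the 79 large-subunit genes, on a log axis, for mpk1Δ, rrp6Δ, the double deletion and WT at 0, 10 and 45 min at 42 °C. Each point is a library and each bar a group mean of 3 libraries; the WT mean was 1.31% ± 0.356 at 45 min, above 0.361% ± 0.0448 in mpk1Δ.

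The first comparison was of heated with unheated cells within each strain. In WT, 63 large-subunit genes fell and 2 rose at 10 min, with a median log2 fold change of -1.06, where 36.2% of all 6017 genes tested fell and 38.3% rose. At 45 min 78 fell and 1 rose, with a median of -3.12, where 39.2% of all genes fell and 41% rose. Between 10 and 45 min, 75 fell and 1 rose, with a median of -1.93, against 21.8% of all genes lower and 25% higher. The 57 small-subunit genes gave similar values: 44 fell at 10 min with a median of -0.97 and 56 fell at 45 min with a median of -3.13. Scaling by total counts alone moved the all-gene median by -0.37 at 10 min and -0.71 at 45 min and turned the all-gene split of 2302 higher and 2179 lower at 10 min into 1680 and 2805, and that of 2469 and 2358 at 45 min into 1618 and 3311. Large-subunit genes lower were then 73 at 10 min and 78 at 45 min, and none rose at either time. Between 10 and 45 min the same scaling turned 1506 higher and 1309 lower into 577 and 2123, and 77 large-subunit genes were lower.

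Among single-copy genes, RPL3, whose product reaches towards the peptidyl transferase centre, had 6351, 5565 and 6477 CPM (counts scaled to library size with TMM factors) in WT at 0 min, 2576, 3494 and 2468 CPM at 10 min and 1154, 1196 and 699 CPM at 45 min. The 3 times did not overlap, and the log2 fold change was -1.11 ± 0.30 (SE) at 10 min and -2.59 ± 0.31 at 45 min (edgeR's quasi-likelihood test, Benjamini-Hochberg adjusted p = 0.00138 and 8.08e-09). RPL5, which carries a small ribosomal RNA into the subunit, changed by -0.89 ± 0.31 and -3.97 ± 0.35, and RPL25, at the exit of the peptide tunnel, by -1.005 ± 0.31 and -3.74 ± 0.35. RPL10, which joins the particle late in the cytoplasm, changed by -0.88 ± 0.35 and -3.02 ± 0.37, RPL32 by -1.13 ± 0.33 and -3.57 ± 0.36, and RPL38 by -0.77 ± 0.27 and -3.13 ± 0.29. All of these passed the test at both times in WT. At 10 min, leaving out WT 10-min replicate C ended the calls of RPL5 (-0.78), RPL10 (-0.78) and RPL38 (-0.63), leaving out replicate A ended those of RPL10 (-0.76) and RPL38 (-0.68), and leaving out WT 0-min replicate C ended that of RPL10 (-0.81).

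Other single-copy genes were lower in WT by the later time only. RPL30 had 2560, 2337 and 2519 CPM at 0 min, 1873, 2182 and 1586 CPM at 10 min and 368, 488 and 255 CPM at 45 min. The 45-min libraries lay below all others, whereas the test was not passed at 10 min (-0.39 ± 0.33) and was passed at 45 min (-2.73 ± 0.35). RPL39, which lines the peptide exit tunnel, had 1724, 1635 and 1638 CPM at 0 min, 1563, 1705 and 1260 CPM at 10 min and 712, 618 and 340.0 CPM at 45 min. Its 10-min libraries overlapped the unheated ones, with a change of -0.14 ± 0.34 that became 0.01 without WT 10-min replicate C, and at 45 min it fell (-1.58 ± 0.35). RPL28, the gene of cycloheximide resistance alleles, was at -0.63 ± 0.29, not past the test, and then fell (-2.64 ± 0.31). With total-count scaling RPL28 and RPL30 also passed the test at 10 min (-0.996 and -0.76), and RPL28 passed with the replicate block (-0.64) and with only the 2 groups compared (-0.57) as well.

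The stalk recruits translation factors and is built from RPP0 and the acidic proteins of the RPP1 and RPP2 genes. RPP0 had 1260, 1176 and 1440 CPM in WT at 0 min, 748, 1237 and 765 CPM at 10 min and 672, 493 and 416 CPM at 45 min. Replicate B at 10 min overlapped the unheated libraries, and the change was -0.50 ± 0.28 at 10 min, not past the test, and -1.30 ± 0.29 at 45 min, past it; the 10-min value passed without that library (-0.74) and with total counts (-0.86). RPP1A had 1747, 1665 and 1854 CPM at 0 min, 1455, 2084 and 1558 CPM at 10 min and 639.9, 513 and 429 CPM at 45 min. Its change at 10 min was -0.05 ± 0.22, not past the test, with a sign that turned in 4 alternative fits. By 45 min all 5 stalk genes had fallen in WT, by log2 fold changes of -1.30 ± 0.29 for RPP0, -1.74 ± 0.23 for RPP1A, -2.69 ± 0.30 for RPP1B, -1.79 ± 0.30 for RPP2A and -2.16 ± 0.25 for RPP2B. At 10 min RPP1B (-0.76 ± 0.28) and RPP2B (-0.59 ± 0.24) passed the test and RPP2A (-0.42 ± 0.29) did not. Leaving out WT 10-min replicate A ended the calls of RPP1B (-0.64) and RPP2B (-0.45), as did leaving out WT 10-min replicate C (-0.64 and -0.56) or WT 0-min replicate C (-0.70 and -0.51), and RPP2A passed with total counts (-0.79) and with only the 2 groups compared (-0.36).

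The extremes of the WT response were paralogs of duplicated genes. At 10 min RPL27B had 160.2, 235 and 124 CPM, against 1209, 1111 and 1176 CPM at 0 min, a log2 fold change of -2.75 ± 0.39. RPL22B (-2.70 ± 0.36) and RPL4A (-2.51 ± 0.32), whose protein reaches into the exit tunnel, came next. At 45 min the lowest were RPL2A, which lies near the peptidyl transferase centre, with 58.6, 103 and 56.2 CPM, against 2155, 2172 and 2667 CPM at 0 min (-4.98 ± 0.45), and then RPL12A of the stalk base (-4.68 ± 0.42) and RPL8A (-4.53 ± 0.26). In these 6 comparisons no heated library overlapped an unheated one.

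At the other end were RPL15B and the RPL41 pair. RPL15B had 38.95, 45.15 and 50 CPM in WT at 0 min, 67.7, 77.5 and 66.8 CPM at 10 min and 72.4, 56.3 and 61.8 CPM at 45 min. Every heated library was above every unheated one, with 0.66 ± 0.14 at 10 min and 0.48 ± 0.15 at 45 min (adjusted p = 0.000117 and 0.00391); with total-count scaling neither passed the test, at 0.29 and, with the sign turned, -0.24. RPL41A had 1350, 1194 and 1196 CPM at 0 min, 2081, 2093 and 1650 CPM at 10 min and 852, 758 and 643 CPM at 45 min. It rose at 10 min (0.64 ± 0.19, a call lost with total counts at 0.27) and fell at 45 min (-0.73 ± 0.19), and the 3 times did not overlap. RPL41B had 1453, 1594 and 1259 CPM at 10 min, against 1056, 1089 and 983 CPM at 0 min, which did not overlap but did not pass the test (0.46 ± 0.27); it passed with only the 2 groups compared (0.52). It fell at 45 min (-1.44 ± 0.28), as did RPL18B (-1.13 ± 0.26), the gene after RPL41A at the top of that comparison. Reads of RPL41A and RPL41B are largely shared in sequence, as shown above.

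RPL22B was the 1 gene that rose in WT between 10 and 45 min. It had 271, 238 and 251 CPM at 0 min, 37.5, 61.1 and 20.55 CPM at 10 min and 73.8, 93.2 and 82.9 CPM at 45 min. The 10-min libraries were the lowest and the 45-min ones lay between the other times, a rise of 1.11 ± 0.36 from 10 min (adjusted p = 0.0124) that did not pass without WT 10-min replicate C (0.79) or with total counts (0.76). Its partner RPL22A, whose ratio to RPL22B is described with the other pairs, had 562, 789 and 536 CPM at 10 min and 230.2, 237 and 136 CPM at 45 min.

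In the deletion strains the medians were lower than in WT at both times. In mpk1Δ 78 large-subunit genes fell and 1 rose at 10 min, with a median of -2.80, where 36.9% of all genes fell and 40.5% rose; at 45 min 78 fell and 1 rose with a median of -5.43, where 39.5% fell and 42.4% rose. In rrp6Δ 75 fell and 1 rose at 10 min, with a median of -2.14, where 37.7% of all genes fell and 37.2% rose; at 45 min 78 fell and 1 rose with a median of -4.69, where 39% fell and 40.5% rose. In the double deletion 77 fell and 1 rose at 10 min, with a median of -2.21, where 37.3% of all genes fell and 37.3% rose; at 45 min 78 fell and 1 rose with a median of -4.54, where 37.9% fell and 39.9% rose. Scaling by total counts turned the all-gene split of 2435 higher and 2219 lower in mpk1Δ at 10 min into 1868 and 2671. At 10 and 45 min in rrp6Δ it turned 2237 and 2266 into 1380 and 3187, and 2436 and 2345 into 1508 and 3331. For the double deletion it turned 2246 and 2247 into 1420 and 3180, and 2398 and 2283 into 1590 and 3129. With that scaling 78 large-subunit genes were lower in each of these comparisons. Without the double-deletion C libraries of both heated times, the counts lower were 75 and 78 and the medians -1.80 and -4.24. The gene that rose was RPL15B in all 6 of these comparisons, but with total counts its value turned to -0.17 in rrp6Δ at 45 min and was 0.25 in the double deletion at 45 min and 0.02 in mpk1Δ at 10 min, none of them past the test. The mpk1Δ 10-min call (0.30 ± 0.13) was also lost without 0-min replicate A (0.24) or B (0.27) or 10-min replicate B (0.16). Of the 79 genes, 62 fell in all 8 comparisons with unheated cells, as did 22.4% of all genes tested, and 78 fell in all 4 strains at 45 min, as did 28.1%. Both times of a strain share its unheated libraries.

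**Figure D2:**
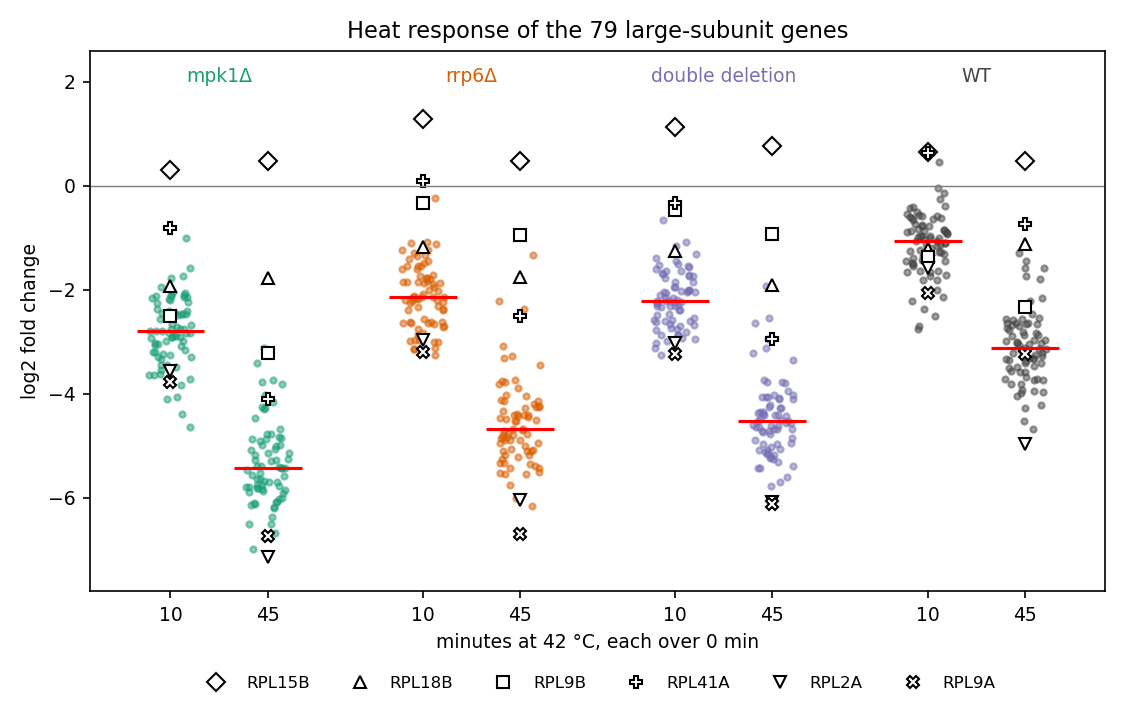
Log2 fold changes of the 79 genes at 10 and 45 min over 0 min in mpk1Δ, rrp6Δ, the double deletion and WT, 1 point a gene, with the median as a bar. RPL15B lies above 0 in all 8 columns, though total-count scaling turned it to -0.24 in WT and -0.17 in rrp6Δ at 45 min, and the medians at 45 min run from -5.43 in mpk1Δ to -3.12 in WT.

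The counts of the 57 small-subunit genes ran alongside: in mpk1Δ 57 fell at each time, with medians of -2.67 and -5.48, and in the double deletion 57 fell at each time, with medians of -2.08 and -4.61. In rrp6Δ 56 fell at 10 min with a median of -1.97 and 57 at 45 min with a median of -4.60. Of all genes, 36.9% and 39.5% fell at 10 and 45 min over 0 min in mpk1Δ. The shares were 37.7% and 39% in rrp6Δ, and 37.3% and 37.9% in the double deletion. Between 10 and 45 min, large-subunit genes lower were 75 in mpk1Δ (median -2.71), 75 in rrp6Δ (median -2.59) and 77 in the double deletion (median -2.41), and none were higher, where 26.4%, 18.1% and 18.3% of all genes fell and 25.6%, 16.9% and 16.9% rose. With total counts the all-gene split between these times was 1918 higher and 1017 lower in mpk1Δ in place of 1541 and 1587, and 656 and 1239 in rrp6Δ in place of 1015 and 1092, with 74 and 76 large-subunit genes lower. The few that did not pass this later test included RPL22B in all 3 deletion strains, RPL18B in mpk1Δ and rrp6Δ, and RPL8A in rrp6Δ.

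The lowest genes at 10 min in mpk1Δ were RPL22B (-4.65 ± 0.41), RPL27B (-4.40 ± 0.43) and RPL13A (-4.10 ± 0.43). In rrp6Δ they were RPL4B (-3.26 ± 0.31), RPL9A (-3.20 ± 0.47) and RPL4A (-3.14 ± 0.33), and in the double deletion RPL4B (-3.27 ± 0.31), RPL9A (-3.23 ± 0.47) and RPL8B (-3.13 ± 0.41). At 45 min RPL2A (-7.15 ± 0.50) and RPL8A (-6.75 ± 0.29) were among the lowest in mpk1Δ. The lowest were RPL9A (-6.70 ± 0.57), RPL8B (-6.17 ± 0.48) and RPL2A (-6.05 ± 0.48) in rrp6Δ and RPL9A (-6.13 ± 0.55), RPL2A (-6.09 ± 0.48) and RPL8B (-5.77 ± 0.47) in the double deletion. RPL2A had 1604, 1736 and 2278 CPM in mpk1Δ at 0 min, 152, 109 and 213 CPM at 10 min and 10.8, 13.1 and 15.4 CPM at 45 min, and no 2 times overlapped.

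The genes at the top were fewer and recurred. After RPL15B came RPL41A and RPL41B at 10 min in mpk1Δ (-0.81 ± 0.19 and -1.01 ± 0.27), both past the test, and in rrp6Δ (0.09 ± 0.19 and -0.23 ± 0.27), neither past it. The sign of RPL41A in rrp6Δ turned with total counts (-0.45) and without rrp6Δ 10-min replicate A (-0.03), and with total counts RPL41B passed the test there (-0.76). In the double deletion RPL41A (-0.33 ± 0.19) did not pass the test and RPL9B (-0.47 ± 0.18) did. RPL41A passed there without double-deletion 10-min replicate B (-0.48) and with total counts (-0.83), and RPL9B did not pass without 10-min replicate A (-0.40), 0-min replicate C (-0.37) or 10-min replicate C (-0.26), with DESeq2's size factors (-0.39) or with only the 2 groups compared (-0.41). At 45 min the genes after RPL15B were RPL18B (-1.78 ± 0.26) and RPL34A (-3.12 ± 0.23) in mpk1Δ, RPL9B (-0.94 ± 0.18) and RPL8A (-1.32 ± 0.22) in rrp6Δ, and RPL9B (-0.93 ± 0.18) and RPL18B (-1.92 ± 0.26) in the double deletion. All of these 6 values at 45 min passed the test as falls.

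The stalk and single-copy genes that did not pass the test at 10 min in WT fell in all 3 deletion strains. RPL39 had 1225, 1136 and 1382 CPM in mpk1Δ at 0 min, 371, 343 and 408 CPM at 10 min and 33.2, 27.2 and 49.2 CPM at 45 min. These groups did not overlap, and the changes were -1.74 ± 0.35 and -5.09 ± 0.41. RPP1A changed at 10 min by -1.58 ± 0.22 in mpk1Δ, -1.23 ± 0.22 in rrp6Δ and -1.40 ± 0.22 in the double deletion, all past the test, against -0.05 ± 0.22 in WT. RPL30 changed by -2.19 ± 0.34, -1.61 ± 0.33 and -1.78 ± 0.34 in those strains, all past the test, against -0.39 ± 0.33 in WT. These are tests within each strain. In the direct test of the difference from WT, given below, 76 of the 79 genes had a lower response at 10 min in mpk1Δ. In rrp6Δ 9 did, and in the double deletion 29.

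The second comparison was of each deletion strain with WT at the same time. Before heat few genes passed the test. In mpk1Δ 1 large-subunit gene was lower and none higher, with a median of -0.42, where 5.22% of all genes were lower; in rrp6Δ 4 were lower and 1 higher with a median of -0.38, against 4.64% lower; in the double deletion 10 were lower and 1 higher with a median of -0.53, against 11.6% lower. The gene lower in all 3, named after its values were seen, was RPL14B, at -0.51 ± 0.17 in mpk1Δ, -0.51 ± 0.17 in rrp6Δ and -0.68 ± 0.17 in the double deletion. These counts depended on which samples entered the fit: a fit of only the 2 groups compared called 61, 71 and 72 genes lower in mpk1Δ, rrp6Δ and the double deletion. Leaving out single libraries gave 0 to 1, 1 to 2 and 4 to 5. With total counts they were 0, 1 and 2, and the all-gene splits of 601 higher and 314 lower, 561 and 279, and 891 and 698 became 863 and 78, 930 and 84, and 1673 and 109. Higher genes made up 9.99%, 9.32% and 14.8% of all genes in the same order. RPL14B was the 1 gene lower in mpk1Δ. That call was lost with total counts, and without mpk1Δ replicate A or B or any 1 WT library at 0 min.

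After heat nearly every gene was lower in the deletion strains. At 10 min 78 genes were lower in mpk1Δ than in WT and none higher (median -2.09, where 22.3% of all genes were lower and 22.6% higher), 74 were lower and 2 higher in rrp6Δ (median -1.42, 15.8% lower and 14.5% higher), and 74 lower and 1 higher in the double deletion (median -1.55, 18.5% lower and 18.7% higher). At 45 min 78 were lower and none higher in mpk1Δ (median -2.86, 31.5% lower and 29.9% higher), 72 lower and 2 higher in rrp6Δ (median -1.84, 24.7% lower and 21.7% higher), and 72 lower and 1 higher in the double deletion (median -1.84, 27.4% lower and 24.7% higher). Of the 79 genes, 70 were lower in all 6 of these comparisons, as were 6.15% of all genes tested. The 3 strains were set against the same WT libraries, so these counts are not independent of one another. Scaling by total counts shifted the all-gene median by 0.76 in mpk1Δ at 45 min and the all-gene split of 1799 higher and 1895 lower to 3862 and 665, and 72 large-subunit genes were then lower and 1 higher. At 10 min in mpk1Δ it turned 1361 and 1344 into 2160 and 764, with 78 large-subunit genes lower. At 45 min in rrp6Δ it turned 1304 and 1487 into 1811 and 934, with 69 lower and 3 higher. For the double deletion it turned 1126 and 1113 at 10 min into 1396 and 699, and 1488 and 1648 at 45 min into 2743 and 721, with 74 and 66 large-subunit genes lower.

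RPL3 had 672, 542 and 767 CPM in mpk1Δ, 1766, 840.2 and 861 CPM in rrp6Δ and 955, 1109 and 416 CPM in the double deletion at 10 min, against 2576, 3494 and 2468 CPM in WT. No library of a deletion strain reached the lowest WT library, and the differences were -2.11 ± 0.31, -1.30 ± 0.30 and -1.78 ± 0.30. At 45 min RPL39 had 33.2, 27.2 and 49.2 CPM in mpk1Δ, 73.9, 43.7 and 34.1 CPM in rrp6Δ and 51.2, 84.2 and 22.9 CPM in the double deletion, against 712, 618 and 340.0 CPM in WT. The WT libraries again lay above all others, with differences of -3.93 ± 0.39, -3.46 ± 0.38 and -3.39 ± 0.38. RPP0 differed from WT at 45 min by -3.505 ± 0.31, -3.20 ± 0.31 and -2.93 ± 0.31 in the same order of strains.

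The genes higher in a strain without RRP6 were RPL8A, RPL9B and RPL18B. RPL9B was higher in rrp6Δ than in WT at 10 min (0.71 ± 0.18) and 45 min (1.06 ± 0.18), and in the double deletion it was lower at 0 min (-0.95 ± 0.18) and higher at 45 min (0.45 ± 0.18). The 45-min value in the double deletion lost its call with DESeq2 (0.42), with only the 2 groups compared (0.50), with each WT 45-min library left out (0.39 to 0.48) and without double-deletion 45-min replicate B (0.23). RPL18B was higher in rrp6Δ at 0 min (1.17 ± 0.26) and 10 min (1.21 ± 0.26) and in the double deletion at 0 min (0.76 ± 0.26) and 10 min (0.72 ± 0.26). The double-deletion call at 0 min was lost whenever any 1 library was left out (0.75 to 0.78), and that at 10 min without WT replicate A (0.67) or C (0.56) or double-deletion replicate A (0.71) or B (0.37), or with only the 2 groups compared (0.76). RPL8A was lower in rrp6Δ at 0 min (-1.93 ± 0.22) and 10 min (-1.998 ± 0.23) and higher at 45 min (1.27 ± 0.24).

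The difference between responses was then tested directly, as the heat response of a deletion strain minus that of WT. For mpk1Δ 76 genes had a lower response than in WT at 10 min and none a higher one, with a median difference of -1.67, where 13.3% of all genes were lower and 7.98% higher; at 45 min 75 had a lower and none a higher response, with a median of -2.40, where 24.7% of all genes were lower and 17.5% higher. The genes that did not pass at 10 min were RPL4A, RPL15B and RPL18B, and at 45 min RPL4B, RPL14B, RPL15B and RPL18B. Scaling by total counts shifted the all-gene median of the 45-min difference by 0.60 and the all-gene split of 1050 higher and 1488 lower to 2429 and 594, and left 63 large-subunit genes lower and 1 higher, with a median of -1.82.

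For rrp6Δ 9 genes had a lower and 2 a higher response at 10 min (median -1.03, where 8.38% of all genes were lower and 4.79% higher), and 55 a lower and 2 a higher one at 45 min (median -1.505, 19.6% lower and 12.6% higher). The 10-min count rested on single libraries: it was 54 without rrp6Δ 10-min replicate A, 1 without replicate B or C of that group, 3 without WT 0-min replicate B, 4 without WT 10-min replicate B, and 5 without WT 0-min replicate A or rrp6Δ 0-min replicate B or C. It was 31 with total counts, where the all-gene split of 288 higher and 504 lower became 91 and 721, and 14 with the replicate letter as a block, although the letters did not pair the samples there. For the double deletion 29 had a lower and 1 a higher response at 10 min (median -1.09, 11% lower and 9.14% higher), and 49 a lower and 2 a higher one at 45 min (median -1.39, 21% lower and 15.9% higher). This 10-min count was 59 without double-deletion 10-min replicate B, 9 without replicate C of that group, 8 without WT 10-min replicate B, 12 without WT 0-min replicate A or B, 19 without double-deletion 0-min replicate C, and 16 without both heated C libraries of the double deletion. With total counts it was 41, and the all-gene split of 550 and 663 became 260 and 838. At 45 min that scaling left 44 genes lower in the double deletion and turned 955 and 1266 into 1129 and 888.

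Genes whose response ran against the majority in strains without RRP6 were again few. At 10 min RPL9B (1.04 ± 0.25) and RPL15B (0.62 ± 0.20) had a higher response in rrp6Δ than in WT, the RPL15B value being lost in 8 fits with a library left out (0.50 to 0.64) and with total counts (0.45). At 45 min RPL8A (3.20 ± 0.33) and RPL9B (1.39 ± 0.25) had a higher response in rrp6Δ. In the double deletion they were RPL9B at 10 min (0.90 ± 0.25, lost at 0.63 without 10-min replicate B) and RPL8A (1.99 ± 0.33) and RPL9B (1.41 ± 0.25) at 45 min.

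The double deletion was compared with the sum of the single-deletion effects on the log2 scale. At 0 min no large-subunit gene departed from that sum in edgeR's test, with a median of 0.28, where 0.166% of all genes were higher and 0.864% lower. DESeq2 called none either, and 1 gene, RPL9B (-0.65 ± 0.25), had an unadjusted p under 0.05. At 10 min 76 genes were higher than the sum and none lower, with a median of 1.90, where 10.2% of all genes were higher and 6.63% lower, and at 45 min 75 were higher and none lower, with a median of 2.70, where 21.5% were higher and 16.8% lower. For RPL3 the level at 45 min was 97.96, 108 and 149 CPM in mpk1Δ, 342, 286 and 269.5 CPM in rrp6Δ and 236, 302 and 141 CPM in the double deletion, against 1154, 1196 and 699 CPM in WT. The double deletion overlapped both single deletions, and all 9 deletion-strain libraries lay below WT. RPL8A, RPL9A and RPL39 departed from the sum at 45 min by 1.21 ± 0.34, 4.65 ± 0.70 and 4 ± 0.52, whereas RPL4B, RPL9B, RPL15B and RPL18B did not pass this test. Total-count scaling moved the all-gene median by -0.53 at 45 min and the all-gene split of 1295 higher and 1012 lower to 450 and 2430, and 68 large-subunit genes were then higher and none lower. At 10 min it turned 611 and 399 into 339 and 372, with 74 large-subunit genes higher.

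Per kilobase of coding length, levels between genes spread widely and RPL41A stood at or near the top. In WT at 0 min RPL41A averaged 15980 ± 1152 CPM per kb (SD, n = 3) and RPL41B 13370 ± 696, next came RPL39 with 10680 ± 324, the median of the 79 genes was 4199, and the lowest was RPL15B with 72.7 ± 9.01. The counts of the RPL41 pair are divided over a very short gene and share most of their sequence, so their levels are less certain than those of the rest. The median level of the 79 genes at 0, 10 and 45 min was 3047, 406 and 72.8 CPM per kb in mpk1Δ, 3114, 713.5 and 118.5 in rrp6Δ, 2791, 636 and 114 in the double deletion, and 4199, 1795 and 476 in WT. RPL15B was last of the 79 in WT at 0 min, and ranked 75 there at 45 min, 61 in rrp6Δ and 20 in mpk1Δ at that time. RPL22B was the lowest gene at 10 min in WT (108 ± 55.2 CPM per kb) and in mpk1Δ (24.7 ± 11.6).

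Paralogs were then compared through the log2 ratio of A to B counts within each library, which does not depend on library scaling. All 34 pairs differed between the 12 groups in limma's moderated F test, where 100% of the 60 A/B-named pairs of the annotation did. Group means ranged over a median of 1.75 log2 units a pair, between 0.79 and 6.52, with 29 pairs over 1 and 14 over 2. In 21 pairs the copy with more counts was not the same in all 12 groups. These ranges and switches were counted for the 34 pairs alone, so they do not set them apart from the other pairs. Averaged over the strains, 27 ratios changed at 10 min over 0 min, 13 towards A and 14 towards B, and 29 at 45 min, 13 towards A and 16 towards B, where 86.7% and 83.3% of the 60 pairs changed. Averaged over the times, 22 differed between mpk1Δ and WT, 20 between rrp6Δ and WT and 23 between the double deletion and WT, where 65%, 60% and 63.3% of the 60 pairs did. Of the other 26 pairs, 25 changed at 10 min and 21 at 45 min, and 17, 16 and 15 differed from WT in mpk1Δ, rrp6Δ and the double deletion. The median absolute change at 10 and 45 min was 0.51 and 0.73 in the 34 pairs, and 0.84 and 0.73 in the other 26.

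**Figure D3:**
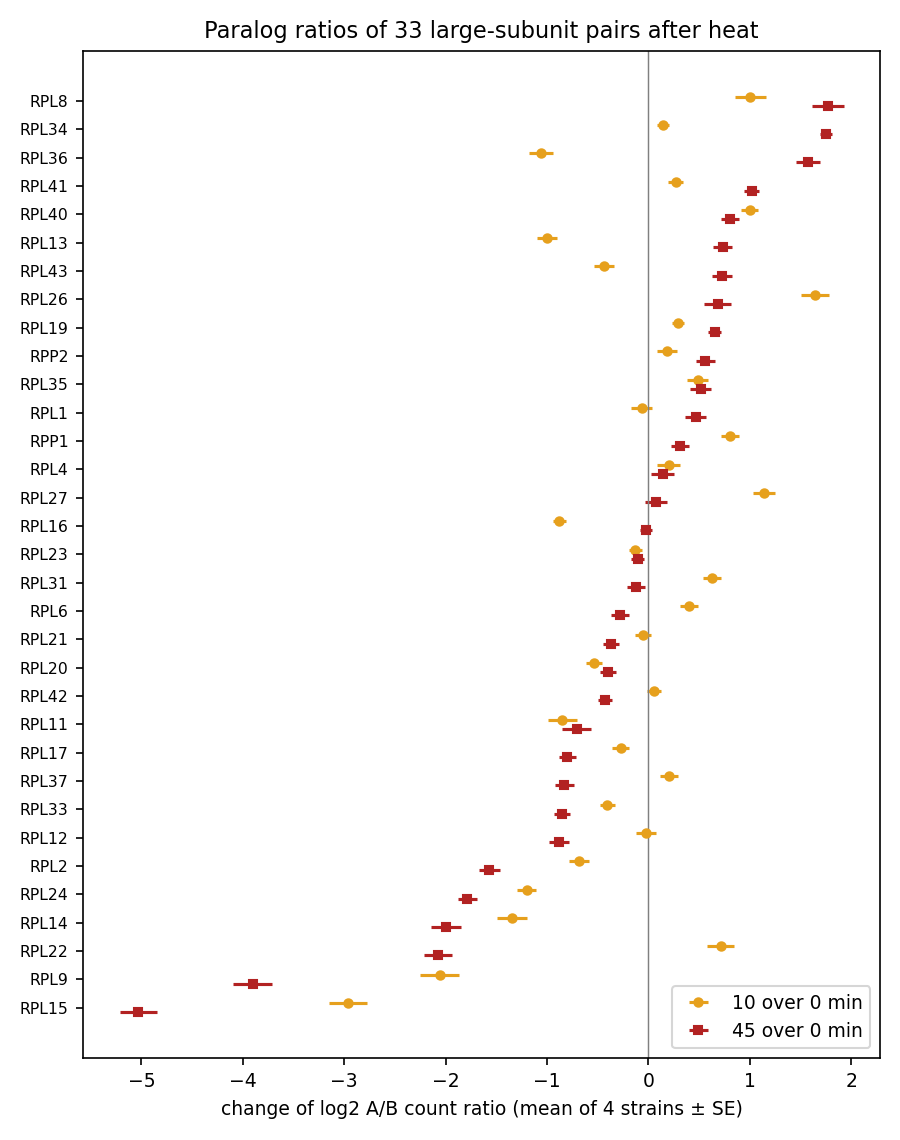
Change of the log2 A/B count ratio of 33 large-subunit pairs at 10 and 45 min over 0 min, as the mean over 4 strains with its SE from limma, 1 row a pair. RPL15 lies farthest to the left, at -2.96 and -5.03, and RPL8 (1.77) and RPL34 (1.75) farthest to the right at 45 min. A mean over strains can join opposite changes. From 0 to 45 min the RPL8 ratio rose in rrp6Δ (-3.13 to 1.71) and the double deletion (-3.04 to 0.33). It fell in WT (-1.65 to -2.54) and mpk1Δ (-1.45 to -1.70).

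RPL15A (YLR029C, chrXII:201976-202590) and RPL15B (YMR121C, chrXIII:509734-510348), whose protein sits deep in the ribosomal RNA core, were the most uneven pair, with 10920 mean counts for A and 354 for B, a 30.8-fold difference. RPL15A had 3069, 2998 and 3934 CPM in mpk1Δ at 0 min, 444, 395 and 599 CPM at 10 min and 63.25, 73.2 and 98.1 CPM at 45 min. RPL15B in the same libraries had 48.9, 50.6 and 59.1 CPM, 56.7, 76.6 and 61.6 CPM and 82.3, 71.4 and 66.55 CPM. At 45 min in mpk1Δ both copies thus overlapped, where at 0 min every RPL15A value was far above every RPL15B value. In rrp6Δ RPL15A had 2997, 3232 and 3191 CPM at 0 min and 131, 109 and 84.97 CPM at 45 min, and RPL15B 27.8, 38.9 and 34.25 CPM and 39.05, 54.9 and 47.3 CPM. In WT RPL15A had 4177, 3966 and 4759 CPM at 0 min, 1657, 2393 and 1954 CPM at 10 min and 598, 696.5 and 535 CPM at 45 min, and stayed above RPL15B in every library. The ratio at 0, 10 and 45 min was 5.97 ± 0.08, 2.87 ± 0.47 and 0.07 ± 0.47 (SD, n = 3) in mpk1Δ and 6.55 ± 0.19, 3.04 ± 0.65 and 1.19 ± 0.48 in rrp6Δ. It was 6.33 ± 0.14, 2.87 ± 0.87 and 0.79 ± 0.83 in the double deletion and 6.59 ± 0.14, 4.81 ± 0.18 and 3.26 ± 0.32 in WT. Averaged over the strains, heat changed it by -2.96 ± 0.18 at 10 min and -5.03 ± 0.18 at 45 min (limma adjusted p = 1.7e-15 and 2.61e-22). Averaged over the times, it was different from WT by -1.91 ± 0.21 in mpk1Δ, -1.29 ± 0.21 in rrp6Δ and -1.55 ± 0.21 in the double deletion. RPL15B alone did not pass the test between mpk1Δ and WT at any time (0.24 ± 0.14, -0.11 ± 0.13 and 0.23 ± 0.14).

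**Figure D4:**
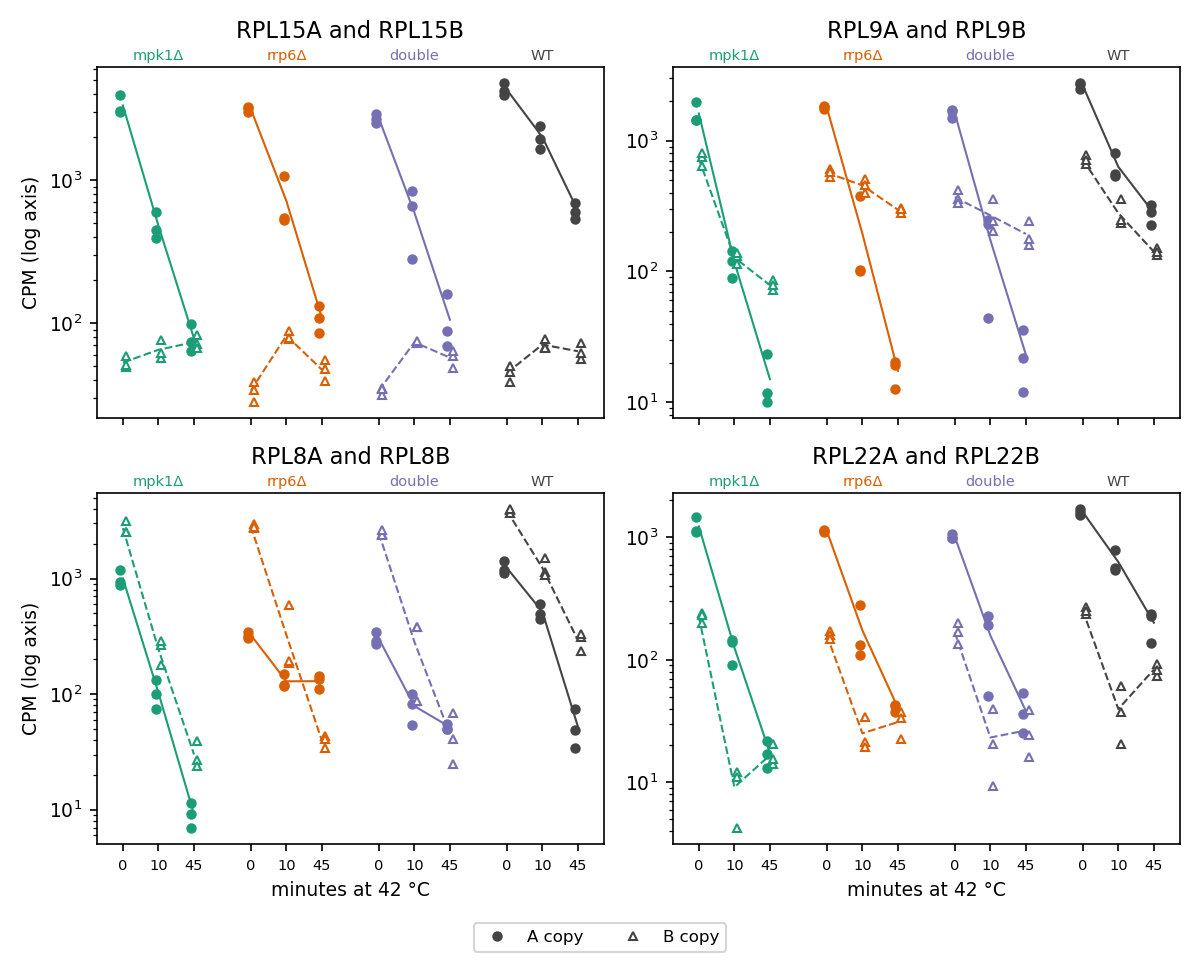
CPM of the A copy (filled circles, solid line through the means) and the B copy (open triangles, dashed line) of RPL15, RPL9, RPL8 and RPL22, on log axes, in each library of mpk1Δ, rrp6Δ, the double deletion and WT at 0, 10 and 45 min. The A and B copies of RPL15 and of RPL22 overlap at 45 min in mpk1Δ, and those of RPL9 cross between 0 and 45 min in the 3 deletion strains.

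RPL9A (YGL147C, chrVII:227754-228329) and RPL9B (YNL067W, chrXIV:499681-500256) encode a protein near the base of the stalk, and RPL9B is known in yeast for its alternative modes of transcription termination. RPL9A had 1830, 1745 and 1806 CPM in rrp6Δ at 0 min, 379.7, 103 and 100.5 CPM at 10 min and 20.3, 19.2 and 12.7 CPM at 45 min. RPL9B had 526, 606 and 578 CPM, 512, 455 and 399.5 CPM and 308, 279 and 302 CPM in the same libraries. RPL9A was thus the higher copy at 0 min and by far the lower one at 45 min, and replicate A at 10 min lay closer to its RPL9B value than the other 2 did. In mpk1Δ at 45 min RPL9A had 11.8, 9.98 and 23.3 CPM and RPL9B 71.7, 85.6 and 78.5 CPM, and in the double deletion 21.6, 35.7 and 11.9 CPM and 159, 244 and 178 CPM. In WT at 45 min RPL9A had 287, 323 and 228 CPM and RPL9B 132.5, 151.5 and 141 CPM, so that A was still the higher copy. The ratio at 0, 10 and 45 min was 1.14 ± 0.18, -0.14 ± 0.20 and -2.48 ± 0.68 in mpk1Δ and 1.66 ± 0.14, -1.52 ± 0.95 and -4.11 ± 0.39 in rrp6Δ. It was 2.14 ± 0.09, -0.94 ± 1.11 and -3.17 ± 0.62 in the double deletion and 1.88 ± 0.08, 1.18 ± 0.03 and 0.97 ± 0.24 in WT. Averaged over the strains, heat changed it by -2.06 ± 0.19 and -3.90 ± 0.19 at 10 and 45 min. Averaged over the times, it was different from WT by -1.84 ± 0.22 in mpk1Δ, -2.67 ± 0.22 in rrp6Δ and -1.999 ± 0.22 in the double deletion. All of these passed the test. From 0 to 45 min the ratio changed least in WT (1.88 to 0.97), and at 0 min that of the double deletion (2.14) was above that of WT. By gene, RPL9A had log2 fold changes at 45 min of -6.70 ± 0.57 in rrp6Δ and -3.24 ± 0.47 in WT, and RPL9B of -0.94 ± 0.18 and -2.34 ± 0.19.

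RPL18B (YNL301C, chrXIV:63570-64562), which contains an intron, had 353, 355 and 424 CPM in mpk1Δ at 0 min, 117.5, 85.4 and 96.8 CPM at 10 min and 110.5, 111 and 109 CPM at 45 min. The 2 heated times overlapped, and both lay below the unheated libraries. Before heat it had 1258, 1385 and 1394 CPM in rrp6Δ and 989.8, 1028 and 1022 CPM in the double deletion, against 596, 587 and 607 CPM in WT, with no overlap. At 45 min it had 493, 395 and 302 CPM in rrp6Δ and 212, 393 and 199.6 CPM in the double deletion, against 288, 309 and 221.5 CPM in WT. At this time the rrp6Δ and double-deletion libraries overlapped those of WT.

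RPL8A (YHL033C, chrVIII:35255-36025) and RPL8B (YLL045C, chrXII:47859-48629), whose protein acts early in the processing of large-subunit ribosomal RNA, moved towards A after heat in strains without RRP6. RPL8A had 309, 318 and 347 CPM in rrp6Δ at 0 min, 150.2, 118 and 119 CPM at 10 min and 143, 112 and 134 CPM at 45 min, and the 2 heated times overlapped. RPL8B had 2954, 2759 and 2793 CPM, 594, 184.5 and 194 CPM and 43.3, 41.05 and 33.9 CPM. RPL8B was the higher copy at 0 min and RPL8A at 45 min, in every rrp6Δ library. In the double deletion at 45 min RPL8A had 49.7, 55.6 and 50.4 CPM and RPL8B 41.1, 69.1 and 24.9 CPM, which overlapped. In WT RPL8A had 1178, 1117 and 1421 CPM at 0 min, 451, 603.5 and 494 CPM at 10 min and 49.2, 73.9 and 33.9 CPM at 45 min, below RPL8B throughout. The ratio at 0, 10 and 45 min was -1.45 ± 0.07, -1.26 ± 0.15 and -1.70 ± 0.28 in mpk1Δ and -3.13 ± 0.13, -1.11 ± 0.76 and 1.71 ± 0.27 in rrp6Δ. It was -3.04 ± 0.12, -1.62 ± 0.81 and 0.33 ± 0.66 in the double deletion and -1.65 ± 0.14, -1.26 ± 0.12 and -2.54 ± 0.34 in WT. Averaged over the strains it changed by 1.01 ± 0.16 at 10 min and 1.77 ± 0.16 at 45 min. Averaged over the times, it was higher than in WT by 0.97 ± 0.18 in rrp6Δ (limma adjusted p = 2.28e-05). That mean joins opposite differences, since the rrp6Δ ratio was below that of WT at 0 min (-3.13 against -1.65) and above it at 45 min (1.71 against -2.54). The averaged differences of 0.34 ± 0.18 in mpk1Δ and 0.37 ± 0.18 in the double deletion did not pass (limma adjusted p = 0.0862 and 0.0727). In the double deletion, too, the ratio was below that of WT at 0 min (-3.04) and above it at 45 min (0.33). The double-deletion value passed without all B libraries (0.58) and with the replicate block (0.37). The mpk1Δ value passed without both heated double-deletion C libraries (0.34).

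RPL22A (YLR061W, chrXII:263194-263948) and RPL22B (YFL034C-A, chrVI:64243-64932) differed 6.27-fold in mean counts, with A the larger. RPL22B had 243, 200.2 and 232.5 CPM in mpk1Δ at 0 min, 12.15, 4.24 and 11 CPM at 10 min and 14.1, 15.4 and 20.6 CPM at 45 min, and RPL22A 1111, 1122 and 1454 CPM, 146, 90.1 and 141 CPM and 17.2, 13.1 and 21.75 CPM. RPL22A fell at each step, whereas RPL22B stood lowest at 10 min, and at 45 min the copies overlapped. The ratio at 0, 10 and 45 min was 2.44 ± 0.23, 3.88 ± 0.44 and 0.05 ± 0.26 in mpk1Δ and 2.67 ± 0.15, 4.10 ± 0.53 and 1.23 ± 0.47 in WT. In rrp6Δ and the double deletion the 0-min and 10-min ratios lay closer together, with values at the 3 times of 2.83 ± 0.10, 2.71 ± 0.28 and 0.41 ± 0.28 in rrp6Δ and 2.61 ± 0.22, 2.72 ± 0.44 and 0.56 ± 0.10 in the double deletion. Over the strains it changed by 0.71 ± 0.13 at 10 min (adjusted p = 1.48e-05) and -2.08 ± 0.13 at 45 min. RPL36 was a pair whose B copy was the larger, 4.79-fold in mean counts, and its ratio at 0, 10 and 45 min was -2.20 ± 0.07, -3.30 ± 0.10 and 0.08 ± 0.45 in mpk1Δ, against -2.22 ± 0.05, -3.51 ± 0.24 and -1.76 ± 0.32 in WT. Over the strains it moved towards B at 10 min (-1.06 ± 0.12) and towards A at 45 min (1.57 ± 0.12). RPL36B had 1716, 2201 and 1583 CPM in WT at 10 min, against 2422, 2402 and 2475 CPM at 0 min (-0.41 ± 0.34, not past the test), where RPL36A had 156.5, 224 and 116 CPM, against 515.5, 535 and 515 CPM (-1.66 ± 0.29).

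**Figure D5:**
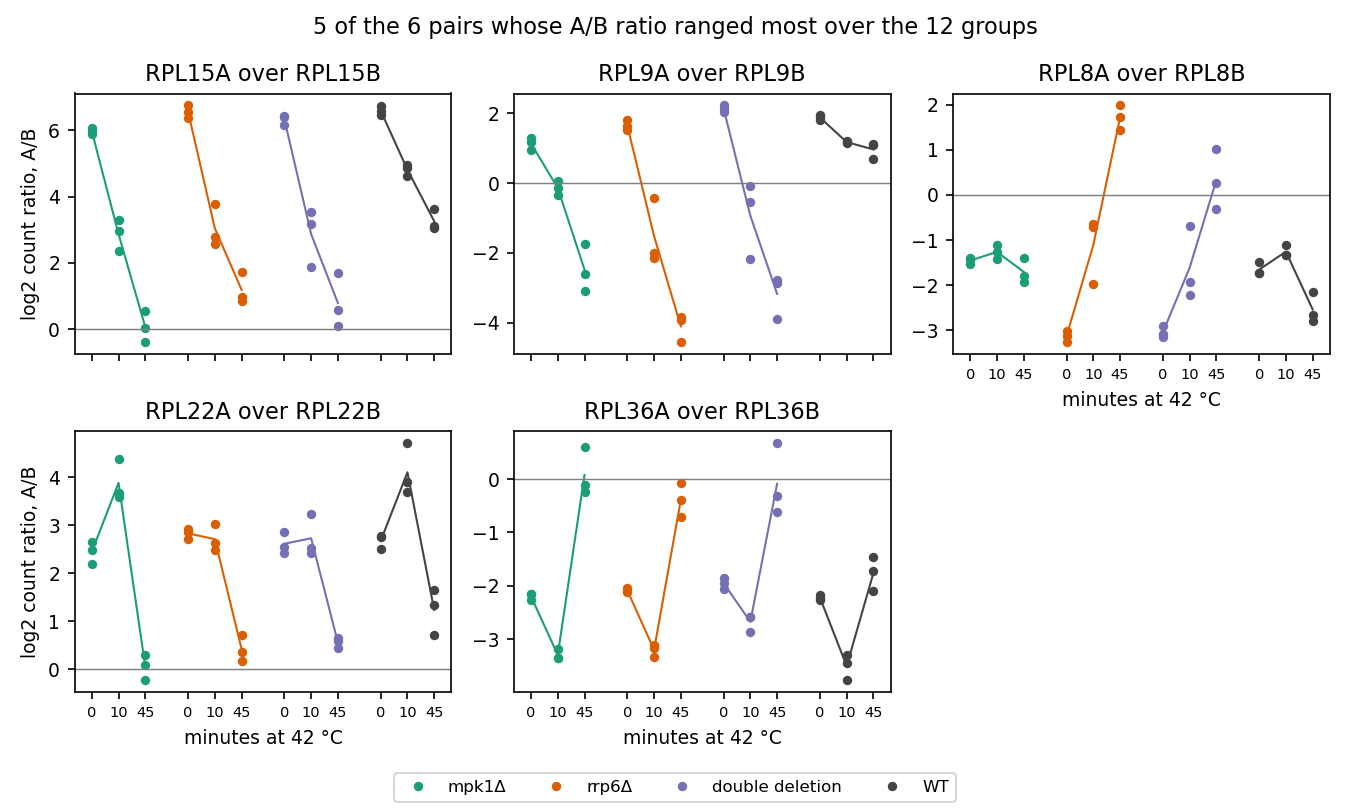
Log2 A/B count ratio of RPL15, RPL9, RPL8, RPL22 and RPL36, 5 of the 6 pairs with the widest range of group means, at 0, 10 and 45 min at 42 °C; each point is a library and each line joins the group means of a strain, and 0 marks equal counts. RPL9 in rrp6Δ runs from above 0 to a mean of -4.11, and RPL8 in rrp6Δ from below 0 to 1.71.

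The narrowest ranges were those of RPL20 (0.79), RPL4 (0.84) and RPL23 (0.87). RPL20A had 16.97, 21.3 and 25.85 CPM and RPL20B 26.8, 25.85 and 33.1 CPM in mpk1Δ at 45 min, against 1156, 1215 and 1418 CPM and 1514, 1495 and 1757 CPM at 0 min. Both copies fell about together, and the ratio over the strains changed by -0.54 ± 0.08 at 10 min and -0.40 ± 0.08 at 45 min, both past the test. For RPL4 the change was 0.20 ± 0.11 and 0.14 ± 0.11 and for RPL23 -0.13 ± 0.06 and -0.10 ± 0.06, none past the test; RPL23 at 10 min passed without all A libraries (-0.19) and RPL4 at 45 min likewise (0.28). The RPL23 ratio was different from WT by -0.29 ± 0.07 in mpk1Δ, -0.50 ± 0.07 in rrp6Δ and -0.45 ± 0.07 in the double deletion, all past the test. RPL4 differed in rrp6Δ (0.32 ± 0.13, limma adjusted p = 0.034), a call lost without all B or all C libraries. That mean over the times joins higher ratios than in WT at 0 and 10 min with a lower one at 45 min (1.52 against 1.84).

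Several further pairs, named after their values were seen, changed their ratio in heat, some of them in opposite directions between times or strains. The RPL34 ratio moved towards A by 1.75 ± 0.06 at 45 min: in mpk1Δ RPL34A had 118, 98.75 and 107.5 CPM and RPL34B 32.2, 30.4 and 35.5 CPM, against 929, 867 and 1017 CPM and 1031, 999.8 and 1253 CPM at 0 min. RPL24, a protein of the bridge between subunits, moved towards B by -1.20 ± 0.09 and -1.78 ± 0.09, and RPL14, whose copies share much sequence, towards B by -1.35 ± 0.15 and -1.99 ± 0.15. From 0 to 45 min the RPL14 ratio changed least in WT, from 1.38 to 1.09. It went from 1.42 to -1.40 in mpk1Δ, 1.54 to -0.90 in rrp6Δ and 1.54 to -0.89 in the double deletion. RPL26 moved towards A, by 1.64 ± 0.14 at 10 min and 0.68 ± 0.14 at 45 min, and RPL27 by 1.14 ± 0.11 at 10 min, with 0.07 ± 0.11 at 45 min, not past the test. That last value averages opposite changes between strains. From 0 to 45 min the RPL27 ratio went from 0.62 to 2.14 in WT and from 0.54 to 0.81 in mpk1Δ. It went from 0.77 to -0.19 in rrp6Δ and from 0.74 to 0.22 in the double deletion. RPL13 moved towards B at 10 min (-0.9988 ± 0.10) and towards A at 45 min (0.73 ± 0.10). From 0 to 45 min the RPL13 ratio went from -1.18 to -0.96 in WT and from -1.30 to -1.16 in mpk1Δ. The change was larger in rrp6Δ (-1.19 to 0.21) and in the double deletion (-1.34 to -0.17). In WT at 10 min RPL26A had 773, 1025 and 740.4 CPM and RPL26B 501, 697 and 416 CPM, against 1283, 1242 and 1252 CPM and 2282, 2031 and 2198 CPM at 0 min, so that RPL26B was the higher copy in all unheated WT libraries and RPL26A in all heated ones at 10 min.

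As a description of how alike the genes were, each log2 CPM profile over the 12 group means was correlated with the median profile of the 79 genes. The median Pearson's r was 0.99, with 42 genes above 0.99 and 69 above 0.95, the points being means of the same libraries for every gene. The median profile is built from these same 79 genes, and the share of all genes above these values was not counted. The values therefore do not show a likeness particular to the group. The lowest values were those of RPL15B (-0.49), RPL18B (0.66) and RPL22B (0.77), followed by RPL9B (0.78). Among genes outside the group, the small-subunit genes RPS7A (0.998) and RPS24A (0.997) were among those with profiles most like the median.

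Other genes that serve the large subunit were counted from fixed lists. The 7 dedicated chaperones of large-subunit proteins fell in all 8 comparisons with unheated cells, as did 22.4% of all genes tested. Their medians in WT were -3.11 at 10 min and -3.35 at 45 min. RRB1, the partner of Rpl3, changed by -3.12 ± 0.33 and -3.51 ± 0.35 in WT, and ACL4, that of Rpl4, by -2.04 ± 0.21 and -2.99 ± 0.23. Of 16 late assembly and export factors 16 fell at 10 min in WT (median -3.09) and 15 at 45 min (median -2.55), and in mpk1Δ 16 fell at each time (medians -3.03 and -2.64). Of all genes, 36.2% and 39.2% fell at 10 and 45 min in WT, and 36.9% and 39.5% in mpk1Δ. REI1, a cytoplasmic maturation factor, changed in WT by -4.24 ± 0.32 at 10 min and -3.24 ± 0.32 at 45 min, and NMD3, the export adaptor, by -2.33 ± 0.30 and -3.10 ± 0.32. Against WT in mpk1Δ, 8 of the 16 were lower and 3 higher at each heated time, where 22.3% of all genes were lower and 22.6% higher at 10 min and 31.5% and 29.9% at 45 min.

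Of 8 regulators of ribosomal protein transcription, 3 rose and 2 fell in WT at 10 min and again 3 rose and 2 fell at 45 min, near or below the shares of all genes (38.3% rose and 36.2% fell at 10 min, and 41% and 39.2% at 45 min). SFP1, an activator, rose by 1.22 ± 0.11 and 1.76 ± 0.11 in WT, and CRF1, a corepressor, by 2.42 ± 0.35 and 2.98 ± 0.36. IFH1 changed by -0.37 ± 0.17 at 10 min, past the test, and 0.27 ± 0.17 at 45 min, not past it, and SCH9, a kinase of the TOR pathway, by -0.88 ± 0.22 and -0.49 ± 0.23. Of 34 mitochondrial large-subunit genes, 16 fell and 6 rose in WT at 10 min (median -0.35) and 23 fell and 2 rose at 45 min (median -0.76), beside the same all-gene shares. In unheated mpk1Δ 27 of these were higher than in WT and none lower (median 0.60), where 9.99% of all genes were higher and 5.22% lower.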

How the data were processed

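Total RNA of 36 cultures was extracted with acid phenol and chloroform and sequenced on an Illumina platform, per the labels' protocols. The authors deposited whole-number read counts per open reading frame for each library; HISAT2 2.1.0, HTSeq and the R64 genome are named in the submitters' processing notes, and the strand setting is not given in the sources used here. Lines that name no gene, among them reads aligned to several places, were kept out of library sizes. The label of the time has no unit and was read as minutes.

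From these counts, genes were kept with edgeR 4.0.16 (R 4.3.3) filterByExpr at a minimum count of 10, a minimum total of 15 and a smallest group of 3, which left 6017. Libraries were scaled by TMM (factors 0.618 to 1.388), and the quasi-likelihood test was fitted over all 12 groups with 30 comparisons, with Benjamini-Hochberg adjustment over all genes and a threshold of 0.05. CPM are TMM-scaled. Paralog ratios are log2((A + 0.5)/(B + 0.5)) per library, tested with limma 3.58.1 over 60 A/B-named pairs with at least 20 mean counts in the lesser copy, heat effects being averaged over strains and strain effects over times. Fits were tested on simulated counts. Alternatives were DESeq2 1.42.0, its size factors, total counts, other filters, the replicate letter as a block, the 2 compared groups alone, and libraries left out.

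The members and gene lists were chosen with earlier results of these data known. Named genes were 9 single-copy and the stalk genes, the 3 lowest and 3 highest of each comparison with 0 min, every gene called against the majority, the 6 pairs with the widest, 3 with the narrowest range and 3 with the most uneven counts, and the 3 genes least like the median profile with the 3 other genes most like it. Pairs and genes named beyond this rule were chosen after their values were seen. 1 duplicated gene pair is not analysed here, and some results that the rule would name are not reported here. Windows of 250 bases before to 50 after the start codon were read from the R64 genome of NCBI RefSeq, in whose annotation 5917 identifiers matched. Same-letter libraries deviated together in 8 of 21 comparisons of 2 groups (all correlations over 0.1), although no label states what a letter shares.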

Additional observations from a re-analysis of the deposited data

Results flagged for a closer look

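The tested difference between the heat response of a deletion strain and that of WT passed the threshold for 11 to 76 of the 79 large-subunit genes. Genes with a different response, in either direction, numbered 76 at 10 min and 75 at 45 min in mpk1Δ, 11 and 57 in rrp6Δ, and 30 and 51 in the double deletion. At 10 and 45 min, 13.3% and 24.7% of all genes had a lower response in mpk1Δ and 7.98% and 17.5% a higher one. The all-gene shares were 8.38% and 19.6% lower and 4.79% and 12.6% higher in rrp6Δ, and 11% and 21% lower and 9.14% and 15.9% higher in the double deletion. The 11 genes of rrp6Δ at 10 min were near these shares, and its count of lower responses ran from 1 to 54 with a library left out. The double deletion departed from the sum of the single-deletion effects for 76 genes at 10 min, where 10.2% of all genes were higher and 6.63% lower, and for 75 at 45 min, where 21.5% were higher and 16.8% lower.

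A signal outside the gene counts also differed between strains. The median share of reads aligned to several places at 0, 10 and 45 min was 12.2%, 19.3% and 24.2% in rrp6Δ and 9.79%, 14.9% and 19.4% in the double deletion, against 5.36%, 4.95% and 7.26% in WT. In mpk1Δ, where the mean share of large-subunit genes was lowest at both heated times, it was 4.66%, 4.11% and 5.13%.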

How the results depend on the processing

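Large-subunit genes lower than in WT at 0 min depended most on the fit. In mpk1Δ, 1 gene was lower, against 61 with only the 2 groups compared, 0 with total counts, 2 with DESeq2 and 0 to 1 with a library left out. In rrp6Δ 4 became 71, 1 with total counts and 1 to 2 with a library left out, and in the double deletion 10 became 72, 2 and 4 to 5. For the 10-min response of rrp6Δ minus WT, 9 became 31 with total counts, 14 with the replicate block and 1 to 54 with a library left out, and for the double deletion 29 became 16 without its heated C libraries and 8 to 59 with a library left out. Paralog ratios different in mpk1Δ numbered 22, and 14 to 21 with all libraries of 1 letter left out. The replicate block moved no other count of large-subunit genes past 1.5 times.

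Signs turned for RPP1A in WT at 10 min (0 with a mean of at least 5 CPM, 0.012 with the 2 groups alone, -0.187 to 0.077 with a library left out), for RPL39 in WT at 10 min (-0.204 to 0.006 with a library left out) and for RPL15B at 45 min with total counts (-0.24 in WT and -0.17 in rrp6Δ). They also turned for RPL41A in rrp6Δ at 10 min (-0.45 with total counts, -0.027 to 0.224 with a library left out). With all libraries of 1 letter left out, the RPL4 ratio ran from -0.003 to 0.282 at 45 min, from -0.209 to 0.030 in mpk1Δ and from -0.026 to 0.259 in the double deletion, where it was -0.018 without the heated C libraries, and the RPL20 ratio ran from -0.025 to 0.102 in mpk1Δ. None of these values had passed the test except those of RPL15B. The cause was not tested.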

Other observations

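Log2 fold changes at 10 min were less negative in shorter large-subunit genes. In WT the 9 genes with coding sequences under 300 bases had a median log2 fold change of -0.61 at 10 min, and the 14 over 600 bases had -1.11. Over the 79 genes, Spearman's rho between coding length and log2 fold change was -0.50 at 10 min and -0.23 at 45 min in mpk1Δ, -0.44 and -0.11 in rrp6Δ, -0.51 and -0.13 in the double deletion, and -0.48 and -0.41 in WT. Over the 57 small-subunit genes it was -0.455 at 10 min and -0.50 at 45 min in mpk1Δ, and -0.41 and -0.29 in rrp6Δ. In the double deletion it was -0.55 and -0.45 for these genes, and in WT -0.40 and -0.54. Over 5715 genes with a coding length it was 0.00 in WT at 10 min and 0.149 at 45 min. Genes share the libraries and are not independent replicates, so these are descriptions. In WT at 10 min the median was -1.06 for the 51 genes with an intron and -1.06 for the 28 without one.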
